A study of Bos taurus with 42 samples.

Results

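A set of 6 genes of the muscle fiber were followed through the fetal transcriptome: *DES*, *LDB3*, *MYPN*, *KLHL41* and *UNC45B*, which take part in building the sarcomere, and *CHRNA1*, which encodes a receptor subunit of the muscle endplate. They were found in the count table by the Ensembl identifiers that the study pairs with these symbols, and make up 6 of the 22664 genes counted. RNA-Seq was performed on the cerebrum, the liver and the muscle of the left hind limb of 14 bovine fetuses, giving 42 libraries of 4145093 to 12741299 counts, with 5384018 to 7592149 counts in muscle. The fetuses were collected at day 50 of gestation from Angus-cross heifers bred to a common sire. Dams of the control group (CON, n = 7) were fed to requirements for moderate gain, and dams of the restricted group (RES, n = 7) received 60% of the control delivery from breeding onward. Each fetus had its own dam, so the 7 fetuses of a diet are separate animals. The labels give 1 female among the CON fetuses (CON 68) and 2 among the RES fetuses (RES 55 and RES 70). Libraries are named here by diet and fetus number, as in RES 25.

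The sarcomere is the contractile unit of striated muscle, in which actin and myosin filaments are held in register between Z-discs. Its parts are laid down while myoblasts fuse into myotubes, and chaperones and ubiquitin ligase adaptors fold and turn over the filament proteins as they are assembled. At the same stage nerve endings reach the young fibers, and acetylcholine receptors gather beneath them to form the endplate.

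*DES* (ENSBTAG00000005353) encodes desmin, the intermediate filament that ties neighbouring Z-discs together. *LDB3* (ENSBTAG00000018707) encodes a PDZ and LIM domain protein of the Z-disc, and *MYPN* (ENSBTAG00000017509) encodes myopalladin, which links Z-disc and thin filament proteins. *KLHL41* (ENSBTAG00000010741) encodes a Kelch protein that stabilizes thin filament components and serves as a ubiquitin ligase adaptor. *UNC45B* (ENSBTAG00000002898) encodes the muscle chaperone that folds the myosin head together with heat shock protein 90. *CHRNA1* (ENSBTAG00000018253) encodes the alpha subunit of the muscle nicotinic acetylcholine receptor. In the RefSeq order of genes (assembly ARS-UCD2.0), *DES* lies between *DNPEP* and *SPEG*, *LDB3* between *OPN4* and *BMPR1A*, *MYPN* between *HERC4* and *ATOH7*, *UNC45B* between *SLFN12* and *NLE1*, and *CHRNA1* between *CHN1* and *WIPF1*, while *KLHL41* is followed by *BBS5*. No member is the next gene of another.

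The tissue comparison asked where the members are expressed. All 6 were higher in muscle than in the cerebrum and the liver, and for each of them every muscle library lay above every library of the other tissues. Over all 15972 genes tested, 9.35% were higher in every muscle library than in every cerebrum library, and 23.8% than in every liver library. *MYPN* and *UNC45B* passed the filter on low counts only through muscle, which fixed their direction. These shares can therefore be set beside the other 4 members only. Values are given as CPM, the count scaled to library size with TMM factors over the 42 libraries. They compare a gene between libraries, but not one gene with another, since transcript lengths were not used here.

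*DES* had a median of 389 CPM in the 14 muscle libraries, with a range from 160 to 956. In the liver it ranged from 3.14 to 15.5 CPM around a median of 5.92, and in the cerebrum from 0.739 to 27.8 around a median of 1.83. The liver and cerebrum libraries overlapped, while the lowest muscle library stood well above both. *DES* was higher in muscle by 7.01 ± 0.44 (SE) on the log2 scale against the cerebrum and by 6.01 ± 0.42 against the liver (edgeR quasi-likelihood test over all 42 libraries, Benjamini-Hochberg adjusted p = 8.18e-18 and 4.2e-17). Of its 381 cerebrum counts, 221 came from RES 1, against 4 to 19 in each other cerebrum library. The size of the difference against the cerebrum therefore leans on that library, and no value without it is given.

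*LDB3* had a median of 107 CPM in muscle (26.5 to 242), 2.2 CPM in the cerebrum (0.725 to 3.91) and 0.528 CPM in the liver (0 to 1.34). *KLHL41* had a median of 219 CPM in muscle (77.8 to 475), 2.01 CPM in the cerebrum (0.838 to 9.94) and 0.818 CPM in the liver (0.177 to 1.49). For both genes the cerebrum and liver libraries overlapped. The log2 differences of *LDB3* were 5.73 ± 0.31 against the cerebrum and 7.53 ± 0.37 against the liver. Those of *KLHL41* were 6.20 ± 0.32 and 8.23 ± 0.37.

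*CHRNA1* separated the other tissues further. It had a median of 162 CPM in muscle (39.7 to 350) and 2.17 CPM in the cerebrum (0.243 to 12.2), but only 6 counts in the 14 liver libraries together, with 10 of them at 0. The log2 difference was 5.63 ± 0.37 against the cerebrum. Against the liver, the 19628 muscle counts gave a pooled ratio of 2005 to 1, with a 95% counting interval from 921 to 5465.

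*MYPN* and *UNC45B* were barely detected outside muscle. *MYPN* had 1815 counts in muscle, 4 in the cerebrum and 1 in the liver, so that its pooled ratio was 370 against the cerebrum (95% counting interval 144 to 1358) and 1113 against the liver (199 to 43969). *UNC45B* had 7624 counts in muscle, 22 in the cerebrum and 13 in the liver, with ratios of 282 (186 to 451) and 360 (210 to 675). Of its 22 cerebrum counts, 13 came from RES 1, against 0 to 2 in each other cerebrum library. The cerebrum ratio therefore leans on that library, and no ratio without it is given. These intervals are exact binomial and cover counting error only, and a library at 0 can still hide a level of up to 3 counts. *DES*, *LDB3*, *KLHL41* and *CHRNA1* passed the test in both contrasts. *MYPN* and *UNC45B* passed the filter on low counts only through the muscle libraries, which fixed their call, so no test is given for them. Of all genes tested, 32.2% were higher in muscle than in the cerebrum and 45.5% higher than in the liver. *MYPN*, *UNC45B* and *CHRNA1* are on the list of muscle-specific genes that the study drew from these libraries, so their direction is not independent evidence.

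**Figure D1:**
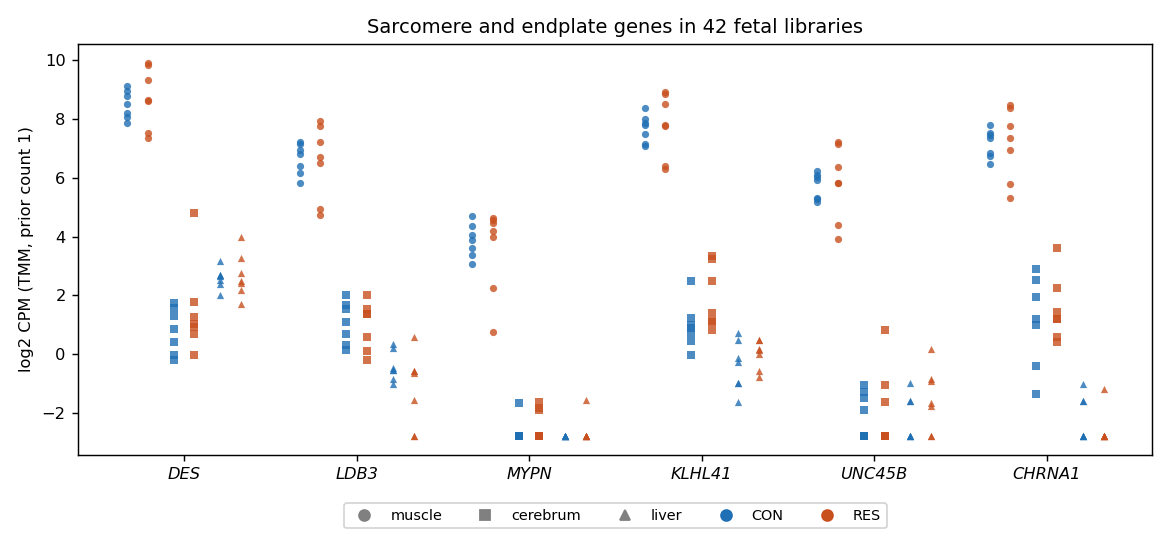
Log2 CPM (TMM, prior count 1) of the 6 genes in each of the 42 libraries, by tissue (marker) and diet (color). Every muscle library lies above all cerebrum and liver libraries of the same gene, and the lowest row of points marks libraries with no count.

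The cerebrum library of RES 1 stood furthest apart for these genes. It held 221 counts of *DES*, against 4 to 19 in the other 13 libraries, and 97 counts of *CHRNA1*, against 2 to 43. It also held 79 counts of *KLHL41* (7 to 57 in the others) and 13 of *UNC45B* (0 to 2). *LDB3*, with 22 counts, and *MYPN*, with 1, stayed within the range of the other cerebrum libraries. Of the 10 skeletal muscle markers, 7 were at their highest in this library, led by the embryonic myosin heavy chain *MYH3* at 72.1 CPM (1.09 to 8.85 in the others). The myogenic factor *MYOG* was at 6.17 CPM (0 to 0.408), while the satellite cell factor *PAX7* was at 0 (0 to 8.27 CPM in the others, median 3.59). The smooth muscle actin *ACTA2* was at 74.6 CPM (0.369 to 5.09) and the cardiac actin *ACTC1*, also the main actin gene of embryonic skeletal muscle, at 111 CPM (0.135 to 3.54). All 4 limb mesenchyme markers, both epidermis markers and both liver markers, *ALB* and *AFP*, were highest in the same library as well, as were all 5 blood markers, among them *ALAS2* of heme synthesis at 74.1 CPM (1.9 to 30.5). Of the 4 cerebral neuron markers, *DCX* at 1.01 CPM (4.74 to 95) and *ELAVL4* at 60.4 CPM (158 to 591) were below every other cerebrum library, and *NEUROD6* and *TBR1* were within the range of the others. Another pair of RES cerebrum libraries also carried markers of other tissues. In RES 33 the 2 liver markers summed to 119 CPM, of which *AFP* made up 76.6, and the 10 skeletal muscle markers to 22.5 CPM, against 2.99 to 27.4 CPM and 3.83 to 15.2 CPM in the 12 libraries other than RES 1 and RES 33. RES 25 was high for the 5 blood markers, at 89.4 CPM against 7.39 to 23.2 CPM in the libraries other than RES 1 and RES 25. Whether tissue from outside the cerebrum reached these 3 libraries was not tested.

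In the liver, RES 55 held 104 counts of *DES*, against 18 to 47 in the other 13 libraries. *LDB3* was also highest there, at 9 counts against 0 to 6. Of the 3 smooth muscle markers, *ACTA2* was at 142 CPM (38.6 to 95.8 in the others) and *TAGLN* at 24.7 CPM (1.66 to 9.95), both at their highest, while *SMTN* was at 63.8 CPM, below the median of 70.7 CPM in the others. Of the 10 skeletal muscle markers, 1 was at its highest in this library, *MYF5* with 3 counts, and *MYH3* was at 8.64 CPM, near the median of 8.25 CPM in the others. The library also held the highest levels of 3 of the 5 nerve and Schwann cell markers, among them *STMN2* at 23.7 CPM (0.53 to 6.81), of 2 of the 3 cartilage markers, among them *COL9A1* at 9.98 CPM (0 to 4.42), and of 1 of the 3 cardiac markers, *HAND2*, at 40.7 CPM (12.4 to 28), while *GATA4* at 32 CPM was below the median of 35.1 CPM in the others and *MYL7* at 2.09 CPM was within their range (0.356 to 11.9). The part of these other cell types in the level of *DES* was not tested.

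The diet comparison asked whether the members differed between fetuses of restricted and control dams. In muscle no member differed between the diets beyond the spread among fetuses. The test called 0 of 14947 genes (0% called), with 9.91% at an unadjusted p under 0.05 in either direction and 5% with that p and a higher level in RES. None of the 6 members was among them. Without RES 6 the number of such genes was 919 in place of 1481, and 432 in place of 747 for those higher in RES. Without RES 33 these numbers rose to 1882 and 952. DESeq2, run as an alternative, called 14 genes in muscle and no member.

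*DES* ranged in CON from 233 CPM through a median of 365 to 551 CPM, and in RES from 160 through 392 to 956 CPM. *KLHL41* ranged from 134 through 219 to 330 CPM in CON and from 77.8 through 220 to 475 CPM in RES. The medians of the diets lay close together, and the RES libraries reached both above and below the whole CON range, with 3 above and 2 below for each of these genes. The log2 difference of RES from CON was 0.46 ± 0.35 (SE, adjusted p = 0.652 by edgeR) for *DES* and 0.34 ± 0.36 (adjusted p = 0.74) for *KLHL41*.

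The Z-disc genes gave the smallest differences. *LDB3* ranged from 56.0 through 110 to 147 CPM in CON and from 26.5 through 105 to 242 CPM in RES. *MYPN* ranged from 8.25 through 14.6 to 25.6 CPM in CON and from 1.55 through 18 to 24.4 CPM in RES, and it was the only member whose highest library was a CON library, that of the female CON 68. The log2 differences were 0.20 ± 0.42 for *LDB3* and 0.02 ± 0.45 for *MYPN*. The sign of neither was stable, since *MYPN* turned negative with any of 7 fetuses left out and *LDB3* did so without RES 1.

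*UNC45B* ranged from 35.7 through 60.2 to 75.4 CPM in CON and from 15 through 56.9 to 148 CPM in RES. *CHRNA1* ranged from 88.5 through 161 to 218 CPM in CON and from 39.7 through 163 to 350 CPM in RES. Both had medians that nearly coincided between the diets while the RES range was wider on both sides. The log2 differences were 0.43 ± 0.41 for *UNC45B* and 0.28 ± 0.40 for *CHRNA1*. Over the 6 members the median difference was 0.31, against -0.01 for all genes tested in muscle. These members vary together across fetuses, so their common sign is not 6 independent observations. The sign also depends on the scale, since the fitted difference compares mean counts. The mean log2 CPM was lower in RES than in CON for *LDB3* (6.53 and 6.63), *MYPN* (3.55 and 3.86) and *CHRNA1* (7.14 and 7.16), and higher for *DES* (8.73 and 8.49), *KLHL41* (7.77 and 7.67) and *UNC45B* (5.81 and 5.72). Without RES 1 the differences were between -0.08 and 0.30, without RES 25 between 0.22 and 0.62 (for *DES*, at 0.62, unadjusted p = 0.0498 and adjusted p = 0.486 by edgeR), and in the male fetuses alone between 0.34 and 0.73.

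**Figure D2:**
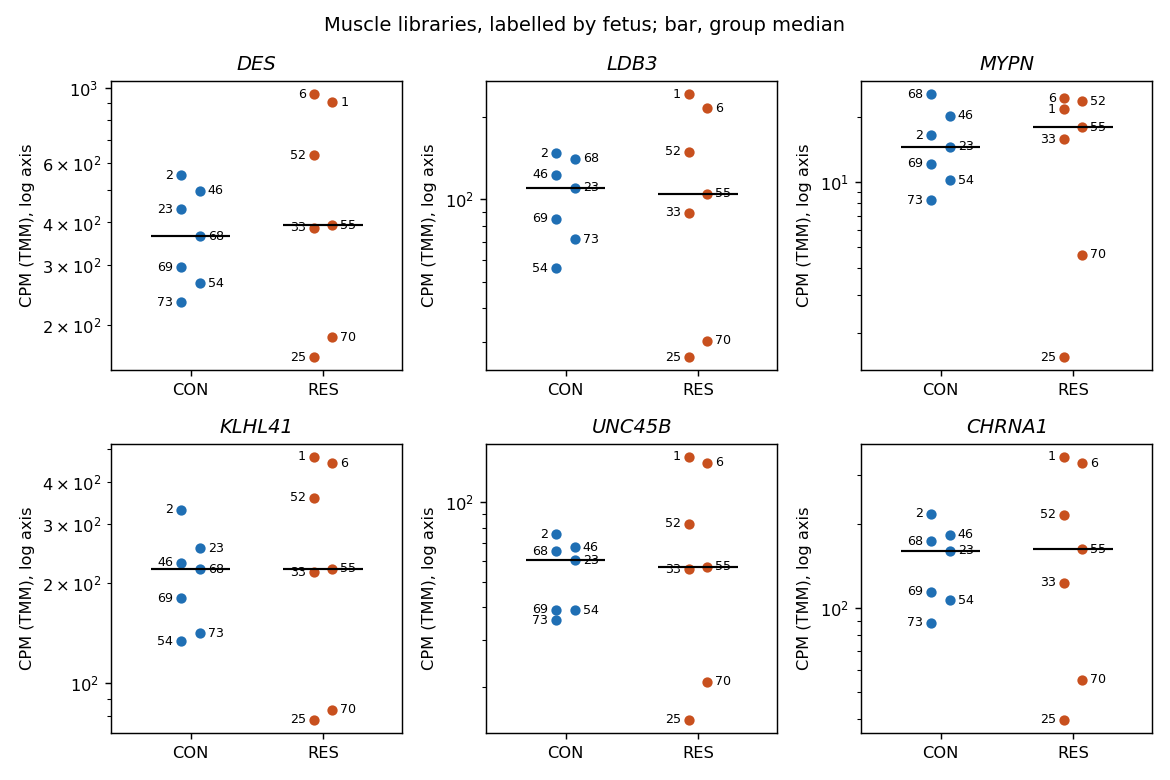
CPM (TMM, log axis) of each gene in the 14 muscle libraries, labelled by fetus number, with a bar at the median of each diet. RES 25 and RES 70 lie at the bottom for every gene. RES 1 and RES 6 lie at the top for every gene except *MYPN*, for which CON 68 is highest.

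The fetuses themselves differed far more than the diets. RES 25 had the lowest muscle level of all 6 genes among the 14 fetuses, and RES 70 the next lowest of all 6. RES 1 and RES 6 took the first and second place for every gene except *MYPN*, for which they ranked 4 and 2. The highest RES library exceeded the lowest by 5.96-fold for *DES*, 6.11-fold for *KLHL41*, 8.8-fold for *CHRNA1*, 9.11-fold for *LDB3*, 9.9-fold for *UNC45B* and 15.7-fold for *MYPN*. In CON these ratios were between 2.11 for *UNC45B* and 3.1 for *MYPN*.

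The SD of log2 CPM was 0.45 to 0.56 in CON and 1.03 to 1.47 in RES. For all genes tested in muscle the median SD was 0.22 in CON and 0.28 in RES, and it was larger in RES for 63.7% of them. A difference in SD as large as that of *DES* was found in 2.73% of muscle genes, and one as large as that of *MYPN* in 0.348%. The comparison of spread was made after the values had been seen. In the exact two-sided permutation test of the mean absolute deviation (3432 splits of the 14 fetuses), p was 0.0868 for *UNC45B*, 0.0886 for *CHRNA1*, 0.0909 for *KLHL41*, 0.103 for *DES*, 0.106 for *LDB3* and 0.4 for *MYPN*. No member passed 0.05, and so the wider spread in RES did not hold up as a difference between diets. With RES 25 left out, the SD of *MYPN* in RES was 0.90 in place of 1.47, against 0.56 in CON.

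The members varied together from fetus to fetus. Over the 14 muscle libraries, the 15 pairs of members had Pearson r from 0.826, for *DES* with *MYPN*, to 0.992, for *UNC45B* with *CHRNA1*. The Spearman rho was between 0.807 and 0.991, with a permutation p of at most 0.00097 before and after adjustment over the pairs. Every r had a permutation p (100000 resamples, two-sided) of 2e-05 or less, and 1e-05 is the smallest that they can give. Adjusted over the 15 pairs, p was at most 2e-05. With the 2 fetuses farthest from the median left out, r stayed between 0.773 and 0.982. Within CON r was between 0.684 and 0.987, and within RES between 0.898 and 0.997. In the exact test within CON, *DES* with *MYPN* (p = 0.0706) and *MYPN* with *KLHL41* (p = 0.0891) were not past 0.05. As a background, r above 0.9 was found in 2.25% of the other 14946 muscle genes with *DES*, 2.08% with *UNC45B*, 1.99% with *CHRNA1*, 1.89% with *KLHL41*, 1.69% with *LDB3* and 0.468% with *MYPN*, and the median r over all genes was near 0.

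**Figure D3:**
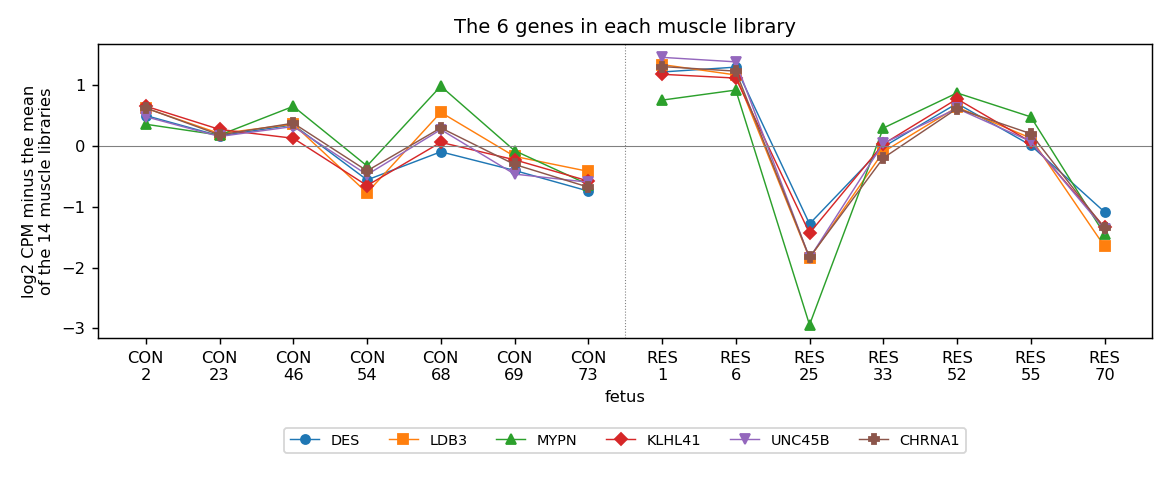
Log2 CPM of the 6 genes in each muscle library, as the difference from each gene's own mean over the 14 libraries, with CON fetuses on the left and RES fetuses on the right. The lines run together, and *MYPN* departs from the others most in RES 25, in RES 1 and in CON 68.

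The ratio of 2 members within a library shows how tightly they were tied. The ratio of *UNC45B* to *CHRNA1*, the myosin chaperone to the receptor subunit, varied 1.32-fold over the 14 fetuses, although each gene varied 8.8-fold or more. The ratio of *DES* to *KLHL41* varied 1.34-fold. *MYPN* was the loosest member, and the ratio of *DES* to *MYPN* varied 7.24-fold, with 103 in RES 25 against a median of 27.5. RES 25 held 14 counts of *MYPN*, and counting error is therefore larger for this value than for the others.

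The genes with the most similar pattern in muscle were named for each member among the genes with a symbol. For *DES* they were the fast myosin light chain *MYLPF* (r = 0.997), *HJV* (0.994) and the embryonic and atrial light chain *MYL4* (0.994). For *KLHL41* they were the light chain *MYL1* (0.992), the calcium pump regulator *SLN* (0.99) and the RNA-binding gene *RBM24* (0.988). *LDB3* varied with the Z-disc gene *MYOT* (0.987), *TXLNB* (0.985) and the muscle calpain *CAPN3* (0.984). *UNC45B* varied with *MYBPH* (0.994), the myoblast cadherin *CDH15* (0.993) and the receptor delta subunit *CHRND* (0.992). *CHRNA1* varied with *MYOT* (0.993), *RBM24* (0.993) and *MYBPH* (0.992). *MYPN* again differed, with the receptor clustering kinase *MUSK* (0.969), *CAP2* (0.967) and *KSR1* (0.965) as its nearest genes. These r values are over the same 14 libraries and are given as a description.

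Other genes of the same structures were read from lists of which only those with a symbol in the study's tables could be used, and the study had chosen part of these on the same libraries. Of 15 genes of sarcomere structure, 8 passed the filter on low counts only through the muscle libraries, which fixed their call. Of the other 7, 6 were higher in muscle than in the cerebrum (32.2% of all genes tested). Of the same 7, 5 were higher than in the liver (45.5% of all genes tested). In the diet comparison in muscle, 14 of the 15 had a difference above 0, with a median log2 difference of 0.33, but 0 passed the adjusted threshold. Over all muscle genes tested, 48.1% had a difference above 0, and genes that vary together from fetus to fetus are not independent counts. The actin *ACTC1* had 1613 ± 559 CPM (SD, n = 7) in CON and 2104 ± 1503 CPM in RES, and *ACTA1* had 155 ± 77 CPM and 235 ± 215 CPM. The actin cross-linker *FLNC* was the steadiest of the abundant genes, at 388 ± 97 CPM in CON and 448 ± 155 CPM in RES. *FHL3*, a LIM protein, was the only gene of the 4 lists with an unadjusted p under 0.05 (log2 difference 0.19 ± 0.09, adjusted p = 0.502 by edgeR). Over all muscle genes tested, 9.91% had such a p by edgeR. *CSRP3*, the muscle LIM protein, gave 0.55 ± 0.46 and *ANKRD2* gave 0.35 ± 0.26.

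Among 10 genes of myofibril chaperones and turnover, 4 passed the filter only through muscle. Of the other 6, 4 were higher in muscle than in the cerebrum (32.2% of all genes tested). Of the same 6, 3 were higher than in the liver (45.5% of all genes tested). *HSP90AA1*, the partner of *UNC45B*, and the cochaperone *DNAJB6* were lower in muscle than in the cerebrum, by -0.59 and -0.87 on the log2 scale, so the partner chaperone did not follow the tissue pattern of *UNC45B*. In muscle *HSP90AA1* had 921 ± 80 CPM in CON and 850 ± 89 CPM in RES. *DNAJB6* had 41.3 ± 4.7 and 43 ± 7.1 CPM, and the small heat shock gene *CRYAB* 40.1 ± 10.8 and 50.7 ± 33.2 CPM. The ubiquitin ligase *TRIM54* (log2 difference 0.72 ± 0.43) and the small heat shock gene *HSPB2* (0.62 ± 0.40) had the lowest unadjusted p of this list, 0.12 and 0.138, and 0 of 10 passed the test.

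Of 8 further endplate genes, 4 passed the filter only through muscle. The other 4 were higher in muscle than in the cerebrum (32.2% of all genes tested). Of these 4, 3 were higher than in the liver (45.5% of all genes tested). The exception was *CHRNE*, the receptor subunit of the mature endplate, which was lower in muscle than in the liver by -1.85 (log2, adjusted p = 1.45e-10 by edgeR). *CHRNG*, the subunit of the fetal receptor, had 253 ± 87 CPM in CON muscle and 360 ± 304 CPM in RES muscle. *CHRND* had 57.5 ± 26.4 and 79.2 ± 67.6 CPM. *CHRNB1* was far steadier than the alpha, gamma and delta subunits, at 88.6 ± 11.5 and 91.1 ± 21.6 CPM. *RAPSN*, which anchors the receptor, gave a log2 difference of 0.52 ± 0.42, and *COLQ*, which anchors acetylcholinesterase, gave 0.34 ± 0.30. Of the 8 genes, 7 had a difference above 0 (48.1% of all muscle genes) and 0 passed the test.

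Of 9 genes of excitation-contraction coupling, 4 passed the filter only through muscle, and the other 5 were higher in muscle than in both other tissues. Over all genes tested, the shares were 32.2% above the cerebrum and 45.5% above the liver. The calcium release channel *RYR1* had 163 ± 41 CPM in CON and 175 ± 80 CPM in RES, the voltage sensor *CACNA1S* 69.97 ± 15.6 and 82.9 ± 33.6 CPM, and the calcium buffer *CASQ2* 103 ± 35 and 144 ± 98 CPM. *JSRP1*, *CAV3* and *CASQ1* gave log2 differences of 0.80 ± 0.47, 0.51 ± 0.40 and 0.49 ± 0.42. Here 8 of 9 differences were above 0 (48.1% of all muscle genes) and 0 passed the test.

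Markers of muscle and of other cell types also differed between the fetuses, and not all in the same direction as the members. The 10 skeletal muscle markers, of which *MYH3* was the most abundant, summed to 6909 CPM in RES 1 and 7825 CPM in RES 6, but to 999 CPM in RES 25 and 1142 CPM in RES 70, with 1511 to 3935 CPM in CON. None of the 10 was at 0 in any muscle library. The fetuses with the highest and lowest levels of the members were also those with the highest and lowest levels of skeletal muscle markers. In bulk tissue, fewer muscle cells and less RNA per muscle cell cannot be told apart.

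The 3 cartilage markers, led by the collagen *COL9A1*, summed to 203 CPM in RES 25, against 35.7 in RES 1, 49.5 in RES 6 and 66.9 to 98.2 in the other 11 libraries. *COL9A1*, at 138 CPM, made up most of the sum in RES 25. The marker *SOX9* was not highest there, at 7.88 CPM against 11.2 CPM in RES 70. The 2 epidermis markers, led by *KRT15*, summed to 183 CPM in RES 70 and 84 in RES 25, against 6.11 in RES 1, 6.90 in RES 6 and 5.86 to 72.8 in the others. The 4 limb mesenchyme markers, led by *PDGFRB*, were highest in RES 70 (518 CPM) and RES 25 (495 CPM), close to CON 46 (487 CPM), and low in CON 73 (238), RES 6 (270) and RES 1 (279). *PDGFRB* and *TWIST1* were highest in RES 70 and RES 25, but *TBX15* was not, with 106 CPM in RES 25 and 109 CPM in RES 70 against 68.4 to 187 CPM in CON. The 3 smooth muscle markers, led by *ACTA2*, summed to 155 CPM in RES 25, 522 in RES 1 and 642 in RES 6. In RES 70, however, they summed to 290 CPM, within the range of 183 to 359 CPM in CON, and *TAGLN* was at its highest there, at 61.8 CPM. The part of non-muscle tissue in the levels of the 6 genes was not tested.

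Nerve markers stood out in another pair of libraries. The 5 nerve and Schwann cell markers, led by *STMN2*, summed to 2063 CPM in CON 73 and 546 CPM in RES 1, against 43.5 to 83.5 CPM in the other 12, and the 4 cerebral neuron markers, led by *ELAVL4*, to 152 and 30.8 CPM against 2.44 to 9.48. CON 73 had the lowest CON level of *DES*, *MYPN*, *UNC45B* and *CHRNA1*, while RES 1 was among the highest. Without both libraries the log2 difference between diets was 0.21 for *DES*, -0.11 for *LDB3*, -0.19 for *MYPN*, 0.10 for *KLHL41*, 0.11 for *UNC45B* and -0.03 for *CHRNA1*. The 3 cardiac markers summed to between 21.2 and 50.1 CPM. *HAND2*, also a limb gene and the most abundant of them over the 14 libraries, was lowest in RES 6 (3.28 CPM) and RES 1 (3.92 CPM), where the atrial light chain *MYL7* was highest (46.9 and 40.1 CPM). *GATA4* was at 0 in 12 of the 14 libraries. The 5 blood markers ranged from 44.9 to 116 CPM, and the 2 liver markers from 1.81 to 45.2 CPM with the highest value in RES 70.

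**Figure D4:**
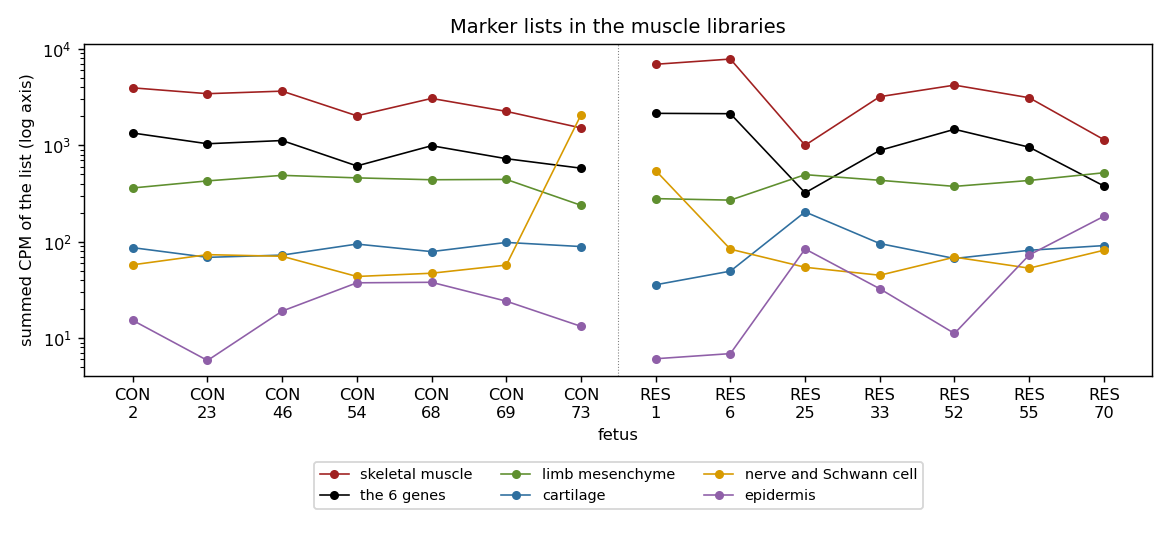
Summed CPM (log axis) of the 6 genes and of 5 marker lists in each muscle library, by diet and fetus. The 6 genes follow the skeletal muscle markers, cartilage markers peak in RES 25, epidermis markers in RES 70, and nerve markers stand out in CON 73 and RES 1.

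The study placed muscle genes in a network of pairs whose correlation differs between the diets, with *ZBTB33*, *ZNF131* and *IGSF10* among its central genes. *ZBTB33* and *ZNF131* encode zinc finger proteins that act on transcription, and *IGSF10* encodes a secreted immunoglobulin superfamily protein. These partners were picked by the study on these same libraries, so the values below describe the 6 members and are no independent evidence. None of the partners differed between the diets in level, with log2 differences of 0.06 ± 0.10, 0.04 ± 0.10 and -0.06 ± 0.20. Over the 14 muscle libraries they ranged from 22.8 to 35.3 CPM for *ZBTB33*, from 42 to 67.1 CPM for *ZNF131* and from 36.4 to 96.6 CPM for *IGSF10*.

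The correlation of members with partners was positive in CON and negative in RES in all 18 pairs. With *ZBTB33*, the r of *CHRNA1* was 0.979 in CON and -0.898 in RES, and that of *DES* was 0.884 and -0.918. With *IGSF10*, the r of *KLHL41* was 0.955 in CON and -0.957 in RES. With *ZNF131* the CON correlations ran from 0.474 for *KLHL41* to 0.897 for *MYPN*, and the RES correlations ran from -0.94 for *MYPN* to -0.995 for *CHRNA1*. The exact test within CON did not pass 0.05 for *ZNF131* with *DES* (p = 0.196), *LDB3* (0.0814), *KLHL41* (0.286), *UNC45B* (0.133) or *CHRNA1* (0.128), nor for *IGSF10* with *MYPN* (0.139). Within RES it did not pass for *ZBTB33* with *MYPN* (r = -0.738, p = 0.0581). Leaving out the 2 fetuses farthest from the median kept r positive in CON, from 0.509 upward, and negative in RES.

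The difference of the Fisher-transformed r between RES and CON had an exact permutation p (3432 splits, two-sided) from 0.000583, the smallest it gave, to 0.0152, and from 0.00262 to 0.0152 when adjusted over the 18 pairs. The members vary together, so these are not 18 independent results. A transformed difference of -2 or lower was found for all 6 members with each partner. It was found for 5.61% of all 14946 muscle genes with *ZBTB33*, 4.22% with *ZNF131* and 4.75% with *IGSF10*. In RES the relation ran from RES 25 and RES 70, where the partners were highest and the members lowest, to RES 1 and RES 6, where the reverse held. The marker lists above set the same 4 fetuses apart, and their part in the correlations was not tested. With the difference between male and female fetuses taken out, the transformed differences were between -3.28 and -1.50 in place of -3.89 and -2.26, with a highest adjusted p of 0.042.

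**Figure D5:**
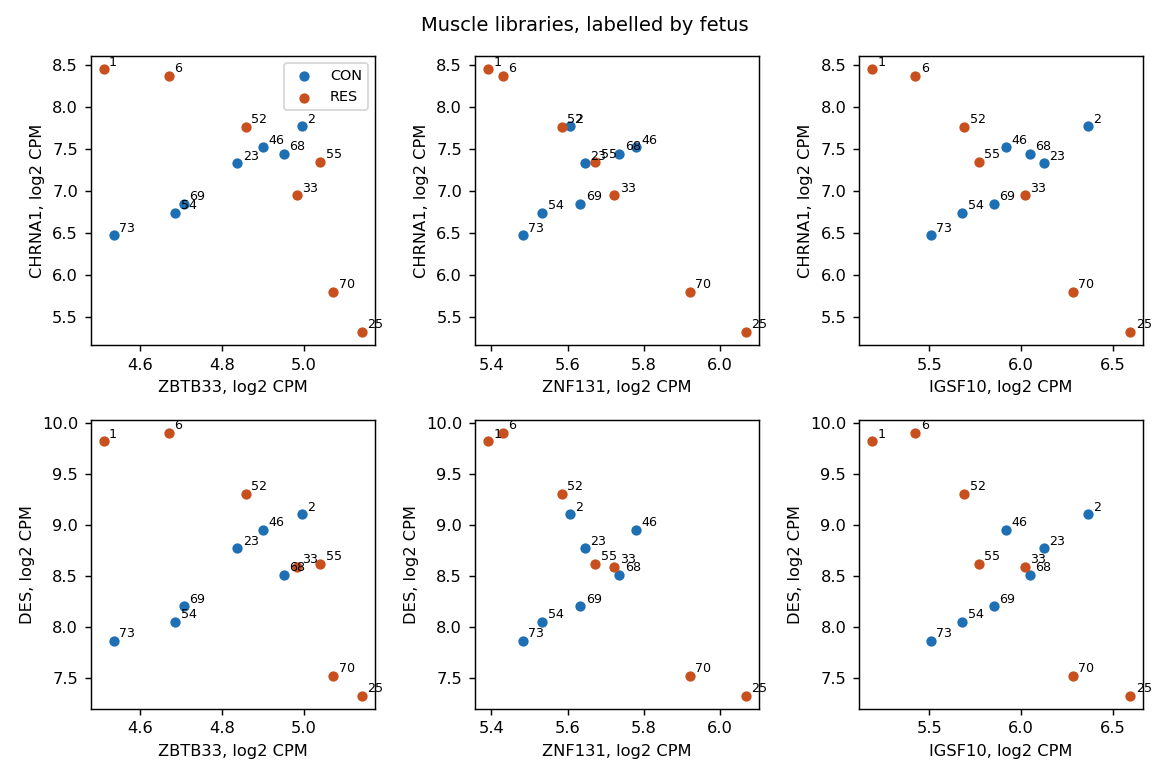
Log2 CPM of *CHRNA1* (top) and *DES* (bottom) against *ZBTB33*, *ZNF131* and *IGSF10* in the 14 muscle libraries, labelled by fetus number and colored by diet. CON fetuses rise from left to right, and RES fetuses fall from RES 1 and RES 6 to RES 70 and RES 25.

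In the cerebrum and the liver the diet comparison could be made only for members that passed the filter on low counts. In the cerebrum these were *DES*, *LDB3*, *KLHL41* and *CHRNA1*, and the test called 0 of 15151 genes (0% called). An unadjusted p under 0.05 was reached by 2.55% of the genes, and by 2.18% with a higher level in RES, *DES* and *KLHL41* among them. Without RES 1 the number of such genes was 108 in place of 386, and 53 in place of 331 for those higher in RES. It was 242 without CON 73 and 635 without RES 6, and for those higher in RES 196 and 563, with 214 without CON 54. *DES* ranged from 0.739 through 1.68 to 3.23 CPM in CON and from 0.842 through 1.89 to 27.8 CPM in RES, with a log2 difference of 1.64 ± 0.68 (unadjusted p = 0.0286, adjusted p = 0.999 by edgeR). Without RES 1 the difference was 0.14 with an unadjusted p of 0.729. *KLHL41* gave 1.2 ± 0.52 (unadjusted p = 0.0332 by edgeR), and 0.89 (unadjusted p = 0.098 by edgeR) without RES 1, with 57 counts in RES 33 and 40 in RES 55 as its next highest RES libraries. These were also the next highest after RES 1 in skeletal muscle markers, at 22.5 and 15.2 CPM, and the part of such tissue in the remaining difference was not tested. *LDB3* and *CHRNA1* gave -0.04 ± 0.44 and 0.38 ± 0.63, and *CHRNA1* was at -0.26 without RES 1.

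In the liver only *DES* was tested. It ranged from 3.85 through 6.24 to 8.76 CPM in CON and from 3.14 through 5.52 to 15.5 CPM in RES, and the log2 difference was 0.07 ± 0.32 (adjusted p = 0.885 by edgeR). The liver test called 0 of 13527 genes (0% called). An unadjusted p under 0.05 was reached by 24.1% of the genes, and by 13.5% with a higher level in RES, but not by *DES*. These shares moved with single fetuses and with the sex covariate. The number of genes behind the first was 1791 to 2167 without RES 1, RES 6, RES 33, CON 46 or CON 69 and 1347 without the sex covariate, in place of 3260. It rose to between 4059 and 4726 without CON 2, CON 68, RES 52 or RES 70. Whether the diet difference itself varied between the tissues was tested with the interaction of diet and tissue over the 42 libraries. It called 0 of 15972 genes (0% called, with 5.62% at an unadjusted p under 0.05), and the adjusted p was between 0.83 and 0.977 for *DES*, *LDB3*, *KLHL41* and *CHRNA1*, of which only *DES* passed the filter in the liver. No value is given for *MYPN* and *UNC45B*, which were near 0 outside muscle.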

How the data were processed

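RNA-Seq counts of 42 libraries were used as deposited. The authors mapped strand-specific 50 bp paired reads with STAR 2.7.3a to the bovine genome (ARS-UCD 1.2) and took raw counts per gene from its GeneCounts option, and the deposited counts are not normalized. The strand column kept is not given in the sources used here. Symbols came from the study's tables (5124 genes), so gene lists were covered in part. The members and lists were chosen with earlier results of these data known.

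Genes with CPM below 1 in at least 80% of libraries were left out, leaving 14947 in muscle, 13527 in liver, 15151 in cerebrum and 15972 over the tissues. Diet was tested per tissue with edgeR 4.0.16 (quasi-likelihood test, TMM, fetal sex as covariate, Benjamini-Hochberg adjustment), and tissues and the interaction over all libraries. CPM values used TMM factors, and log2 CPM a prior count of 1. Partner correlations used the variance stabilizing transformation of DESeq2 1.42.0. On simulated counts for the muscle diet comparison (14947 genes), edgeR recovered 76% of genes changed by 1 on the log2 scale and 97% of those changed by 2, with 6 false calls. DESeq2 recovered 84% and 98%, with 38 false calls. The changed genes were drawn without regard to their spread among fetuses. The members had an SD of log2 CPM of 0.45 to 0.56 in CON and 1.03 to 1.47 in RES. The medians for all muscle genes were 0.22 and 0.28, so these shares do not give the recovery for the members. For the liver comparison (13527 genes) edgeR recovered 48% and 96%, and for the cerebrum comparison (15151 genes) 40% and 84%. Median depth was 5322765.5 counts in cerebrum, 8130072.5 in liver and 6644024.5 in muscle, which limits weakly expressed genes. No libraries duplicated each other.

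Libraries with the same number come from the same fetus according to the labels, and the correlation of their deviations was over 0.1 in 5 of 14 fetuses for cerebrum and liver, 7 of 14 for cerebrum and muscle and 9 of 14 for liver and muscle. Named genes were the members, of each list of related genes the 3 most abundant in muscle and the 3 with the lowest unadjusted p for diet, the most abundant gene of each marker list, and the 3 genes most alike each member. Other names (*MYOG*, *PAX7*, *MYF5*, *TAGLN*, *SMTN*, *GATA4*, *MYL7*, *SOX9*, *TWIST1*, *TBX15*, *ALAS2*, *ALB*, *AFP*, *DCX*, *NEUROD6*, *TBR1*, *CHRNE*) were chosen after their values were seen. Of the endothelium list no gene had a symbol. Batch is not given in the labels per library. Promoter motifs, protein sequences and transcript lengths were not analysed here. Tools were R 4.3.3, Python 3.11.15, numpy 2.4.6, pandas 2.3.3, scipy 1.17.1 and matplotlib 3.10.9. Alternatives are given in the closing section.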

Additional observations from a re-analysis of the deposited data

Results flagged for a closer look

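Within each tissue and diet, a member was singled out when its highest or lowest library was separated from the nearest one by a gap beyond Dixon's critical value for groups of 7 at the 95% level. Of 35 groups tested, 4 were singled out, and chance alone singles out about 1 in 20. No member was singled out in muscle. In the cerebrum, *DES* in RES 1 was at a log2 CPM of 4.81, with the next RES library at 1.77. The other cases rest on 1 or 2 counts where all other libraries of the group had none. In such a group any count is singled out, so the 4 cannot be set against the rate of 1 in 20. *MYPN* in the cerebrum of CON 46 was at -1.66 (1 count), *MYPN* in the liver of RES 25 at -1.56 (1 count), and *CHRNA1* in the liver of RES 55 at -1.17 (2 counts).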

How the results depend on the processing

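The diet tests called 0 genes in every tissue under each alternative except DESeq2's Wald test, which called 14 genes in muscle and 78 in liver, and the interaction called 0 genes except with DESeq2's likelihood ratio test, which called 2. On simulated muscle counts DESeq2 made 38 false calls where edgeR made 6, and the cause of its calls in the deposited counts was not tested. When any single fetus was left out, the diet counts stayed at 0 (lowest and highest 0). The log2 difference in muscle then ranged from -0.034 to 0.54 for *LDB3* and from -0.13 to 0.34 for *MYPN*. In the liver it ranged from -0.14 to 0.22 for *DES*, and in the cerebrum from -0.27 to 0.13 for *LDB3* and from -0.26 to 0.68 for *CHRNA1*. The direction thus turned in these comparisons, none of which passed the test. Without CON 73 and RES 1, an alternative chosen after seeing the data, *LDB3* was at -0.11, *MYPN* at -0.19 and *CHRNA1* at -0.026. With the fetus as a replicate block, 10888 genes were called between muscle and cerebrum, 13157 between muscle and liver (10879 and 13105 without it) and 0 for the interaction, with no change of call for a member. No paired analysis was possible because no fetus belongs to both diets for the diet tests. All 15 pairs of members and all 18 pairs with partners kept their direction and passed 0.05 after adjustment under every alternative, including each fetus left out. At this depth no diet difference could be read for *MYPN* and *UNC45B* outside muscle, nor for *LDB3*, *KLHL41* and *CHRNA1* in the liver, where no library held 10 counts of them.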
